A study of Homo sapiens with 9 samples.

Results

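The genes described here encode the machinery that starts transcription: the subunits of RNA polymerases I, II and III, the Mediator complex, TFIID with its TBP-associated factors (TAFs), and the general factors TFIIA, TFIIB, TFIIE, TFIIF, TFIIIB and TFIIIC. They were taken by symbol (POLR1, POLR2 and POLR3 subunits, MED, TAF, GTF2A, GTF2B, GTF2E, GTF2F and GTF3C genes, TBP, BRF1 and BRF2) among probes designed to a RefSeq coding transcript. In all, 130 probes of 101 genes met this rule, and 100 of the genes passed the filter on dim probes, against 21832 genes or unnamed transcripts tested on the arrays, of which 13998 had a gene symbol. The single member that was left untested, TAF7L, did not rise clearly over background on any of the arrays. Of the 100 tested members, 99 were well above background on all 9 arrays; the remaining one, MED12L, was so on 5.

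RNA was measured in A2780, an established human ovarian carcinoma cell line, in untreated cells and in cells treated for 24 h with DIG-MSK (8 nM in one group, 80 nM in the other), with 3 independent cultures in each group and 1 one-colour Agilent array for each culture. DIG-MSK, in full demycarosyl-3D-β-D-digitoxosyl-mithramycin SK, is an analogue of mithramycin, an antitumour antibiotic that binds C/G-rich DNA. The question was how each concentration changed transcript levels relative to untreated cells. Levels are given as log2 of the background-subtracted signal relative to the 75th percentile of the same array, so that a difference of 1 is a doubling, and a level of one probe cannot be set against that of another probe. To be called, a gene had to reach 1.5-fold for up-regulation or drop to 0.67-fold for down-regulation, with an unadjusted p under 0.05 in limma.

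Arrays of the same group correlated at 0.9891 to 0.9957, and 24814 to 27151 probes per array were well above background. Replicate 2 of the 8 nM group had the fewest such probes and the lowest 75th percentile, and results that change without it are given below. Untreated and 8 nM arrays lay on one slide and the 80 nM arrays on another, with a net signal of the negative control spots of 31.1 to 38.6 on the former and 22.1 to 22.7 on the latter, so the effects of 80 nM and of the slide cannot be told apart. The keratin genes KRT7, KRT8 and KRT18 and the epithelial gene EPCAM were well above background on all 9 arrays, PAX8 on 3, and WT1, MUC16 and CDH1 on none (0 of 9). Among markers of other cells, PECAM1 was above background on 0 arrays, CD3E and VWF on 3, LUM on 4, and PTPRC, CD68, DCN and PDGFRB on all 9; their part in the results was not tested.

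As background, RNA polymerase I makes the large ribosomal RNA precursor, RNA polymerase II makes messenger RNA, and RNA polymerase III makes transfer RNA, 5S ribosomal RNA and other short RNAs. Each is recruited by its own set of factors, all of which use TBP: SL1 for polymerase I, TFIID for polymerase II and TFIIIB, placed by TFIIIC, for polymerase III. Mediator bridges DNA-bound activators and polymerase II. Its tail contacts activators, its head and middle contact the polymerase, and a separable kinase module modulates the complex. Several subunits exist in alternative forms encoded by paralogous genes.

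At 8 nM few of these genes changed. The Mediator genes MED23 and MED12 and the polymerase III gene POLR3GL were up-regulated, 3 of 100 members (3%), where 4.28% of all genes tested were called up-regulated. GTF2A1, BRF1 and POLR3G were down-regulated, again 3 of 100, where 2.97% of all genes tested were called down-regulated. The other 94 members were not called. Among genes with a symbol, 5.34% were called up-regulated and 2.17% down-regulated. After Benjamini-Hochberg adjustment over all genes tested, 5 of the 6 calls stood, the exception being GTF2A1 (adjusted p = 0.056, limma). The groups did not overlap for 27 members, 13 above and 14 below untreated, while the same was true of 33.3% of all genes.

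At 80 nM, 7 members were up-regulated (MED23, TAF2, MED12, GTF3C3, POLR3F, POLR2C and POLR2K), where 18.8% of all genes tested were up-regulated. Down-regulated were 14 members (among them MED12L, BRF1, TAF3, TAF5L, GTF2A1, TAF13, MED26, TAF4, POLR3G, MED13L, GTF3C4, POLR3E and GTF2F2), where 16.4% of all genes tested were. MED12L passed the filter on dim probes only through the untreated cells, and without it 13 members were down-regulated. All 21 calls also had an adjusted p under 0.05. For the genes with a symbol the shares were 17.8% and 16.9%. Scaling the arrays to spike-in controls instead of the 75th percentile gave 4 up-regulated and 27 down-regulated members at 80 nM, and 10.3% and 26.1% of all genes; that scaling moved the median log2 change of all genes from 0.08 to −0.20 and that of the members from −0.06 to −0.33, so that the median of the members minus that of all genes was −0.13 with either. These data do not measure RNA per cell.

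**Figure D1:**
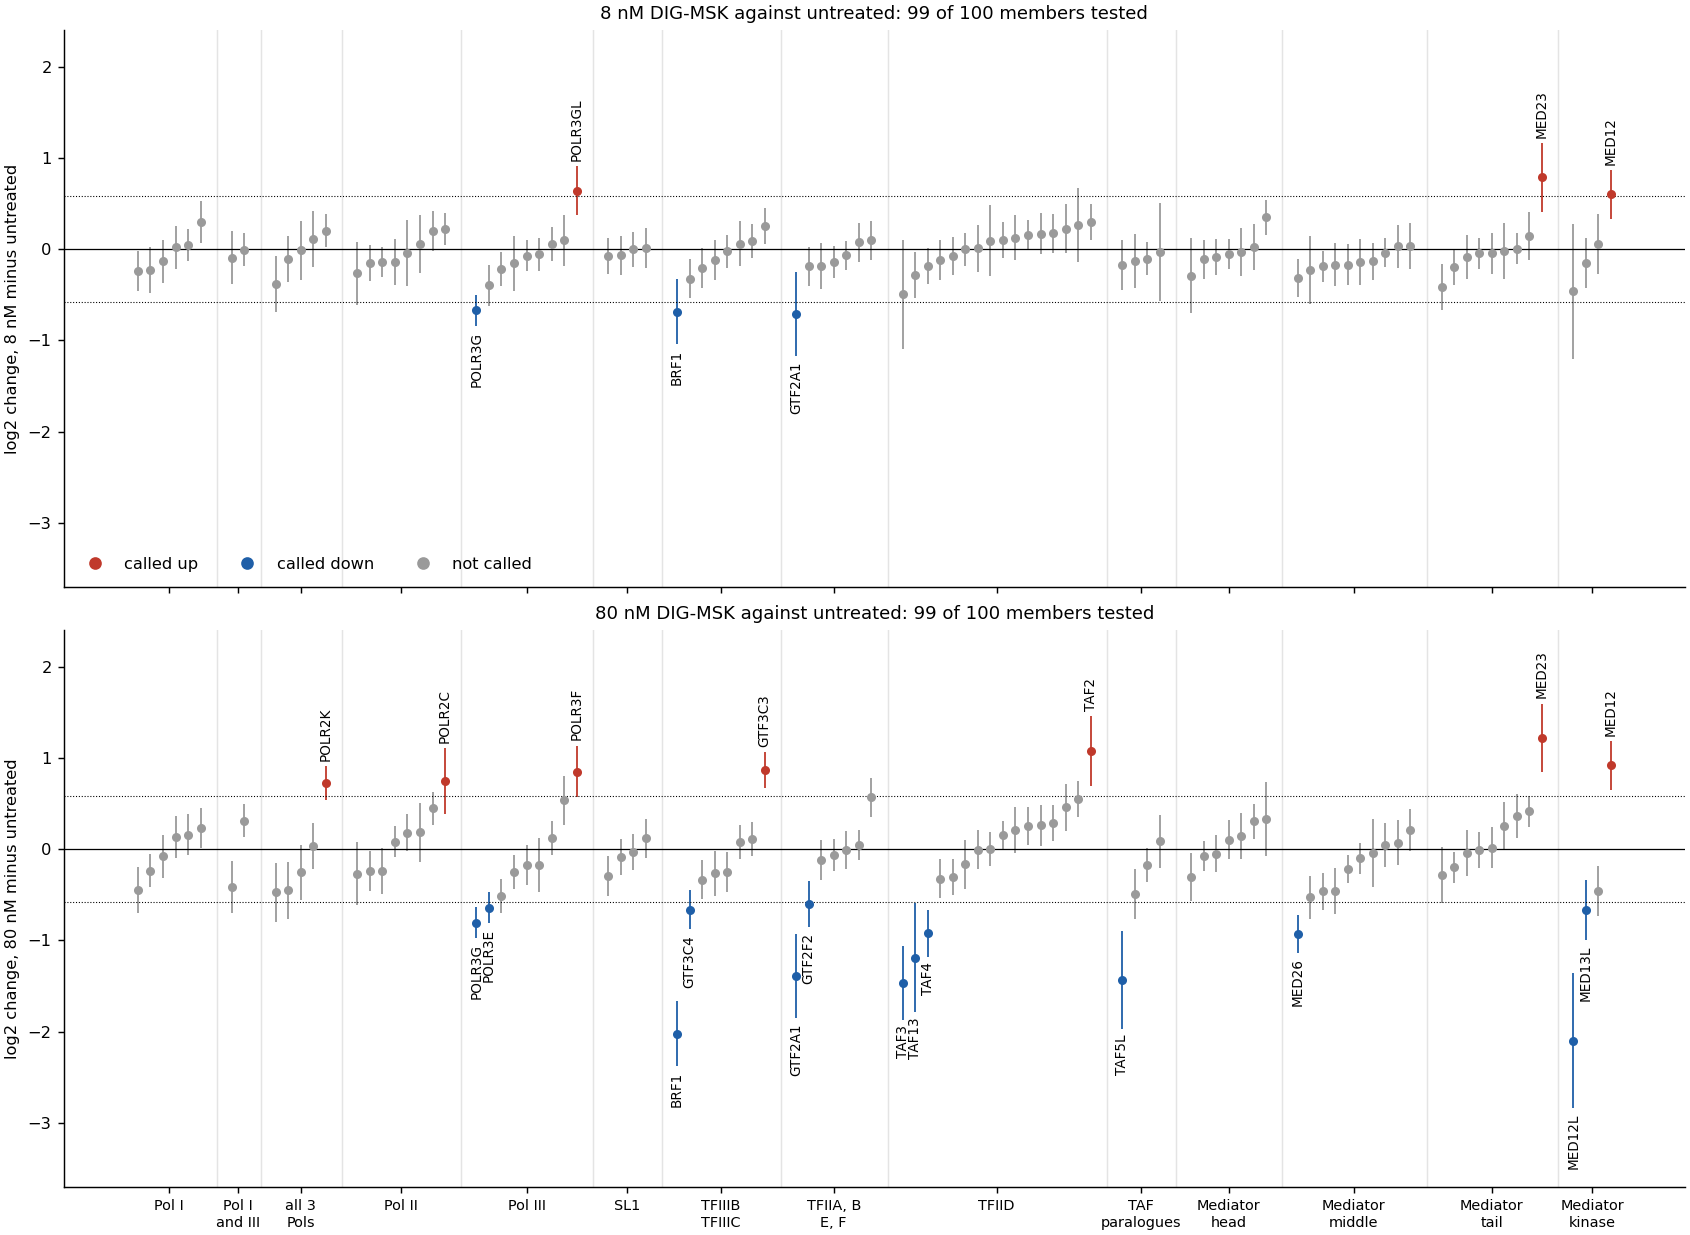
Log2 change of 99 of the 100 tested members at 8 nM (upper panel) and 80 nM (lower panel) against untreated cells, ordered by role and, within a role, by size. Points are limma estimates from 3 arrays per group, bars are 95% confidence intervals, dotted lines mark 1.5-fold and 0.67-fold, and called genes are named; the MED12L value at 80 nM is not well above background. Of the genes shown, 6 were called at 8 nM and 20 at 80 nM.

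The changes of the members were mostly small. Their median size, regardless of direction, was 0.13 on the log2 scale at 8 nM and 0.26 at 80 nM, where all genes tested had medians of 0.19 and 0.42 and the genes with a symbol 0.18 and 0.40. The members were also read from brighter probes, with a median untreated level of 1.79 against −0.75 for all genes tested. Their median SE was 0.10 against 0.12. The part of brightness in the size of the changes was not tested. At 80 nM 51 of the 100 members had an adjusted p under 0.05 in limma, most of them with a change below the fold threshold. An adjusted p under 0.05 was reached by 12607 of all 21832 genes tested and by 60.5% of the genes with a symbol. The groups did not overlap for 70 members, 25 above and 45 below untreated, and for 71.8% of all genes. Among members well above background on all 9 arrays, the changes at 80 nM ran from −2.02 (BRF1) to +1.22 (MED23).

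**Figure D2:**
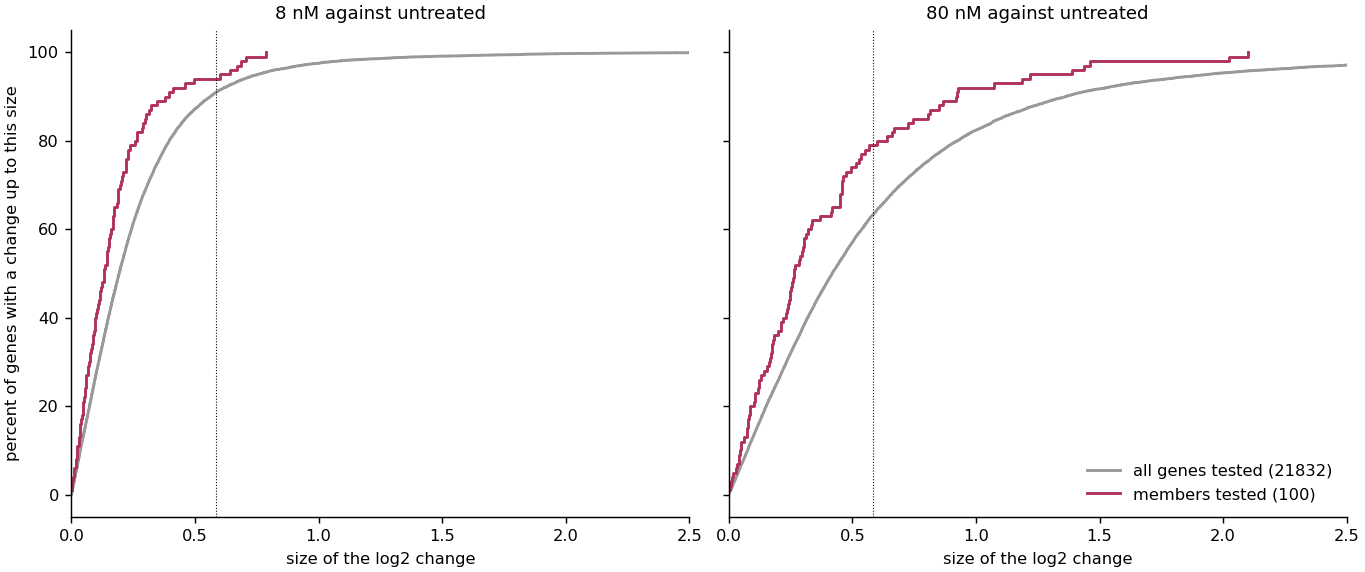
Cumulative distribution of the size of the log2 change in the 100 tested members and in all 21832 genes tested, at 8 nM (left) and 80 nM (right); the dotted line marks 1.5-fold. The curve of the members lies to the left of that of all genes at most sizes, with medians of 0.13 against 0.19 at 8 nM and 0.26 against 0.42 at 80 nM.

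Among the subunits of the polymerases, the 6 that belong to polymerase I alone were not called at either concentration, although 2 at 8 nM and 3 at 80 nM had an unadjusted p under 0.05 in limma. At 80 nM they ranged from −0.45 (POLR1A, the largest subunit) to +0.23 (POLR1F), and POLR1B, the second largest subunit, stood at −0.23 (SE 0.08, adjusted p = 0.031). Neither POLR1C nor POLR1D, which polymerases I and III share, was called, with −0.41 and +0.31 at 80 nM. Their second probes gave +0.42 for POLR1C and +0.71 for POLR1D at 80 nM, the latter designed to another transcript. The 4 polymerase I TAFs of SL1 (TAF1A to TAF1D) lay between −0.30 and +0.12 at 80 nM and were not called, with an unadjusted p under 0.05 for 0 of them at 8 nM and 1 at 80 nM.

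POLR2A encodes the largest subunit of RNA polymerase II, which carries the catalytic site and the C-terminal repeats. Its levels were 5.15, 5.33 and 5.21 on the untreated arrays, 5.05, 5.63 and 5.18 at 8 nM and 5.37, 5.46 and 5.41 at 80 nM. The 80 nM arrays lay just above the untreated ones, whereas those at 8 nM straddled them. The differences were 0.06 (SE 0.14, adjusted p = 0.81) at 8 nM and 0.18 (95% confidence interval −0.14 to 0.50, adjusted p = 0.29) at 80 nM. POLR2B, the second largest subunit, stood at 0.22 and 0.45 (adjusted p = 0.0013 at 80 nM), which is 1.37-fold and was not called. Of the 8 members specific to polymerase II, POLR2C was called. It encodes a subunit of the assembly platform and rose at 80 nM by 0.75 (SE 0.16, adjusted p = 0.0037), with 0.47 under spike-in scaling and 0.56 without untreated replicate 1, neither of which was called. Apart from POLR2B, the other members of this group lay between −0.27 and +0.18 at 80 nM. Among them were POLR2J (0.18) and POLR2J2 (−0.27), near-identical copies whose signals may mix.

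Of the 5 subunits shared by all 3 polymerases, POLR2K was up-regulated at 80 nM. This gene encodes the smallest zinc-binding subunit, and its levels went from 0.98, 1.17 and 1.02 in untreated cells to 1.77, 1.75 and 1.84. The change was 0.73 (SE 0.08, adjusted p = 0.0001), or 1.65-fold, and fell to 0.45 under spike-in scaling, not called. POLR2E and POLR2H changed the other way, by −0.45 and −0.47 (adjusted p = 0.02 for both), without reaching the fold threshold, and POLR2F and POLR2L stood at 0.03 and −0.25.

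Of the 10 subunits specific to RNA polymerase III, 1 was up-regulated and 1 down-regulated at 8 nM, and 1 and 3 at 80 nM. In either direction this is 20% at 8 nM and 40% at 80 nM, where 7.25% and 35.2% of all genes tested were called. Both calls at 8 nM concerned one position in the enzyme, which can be filled by either of 2 paralogous subunits, POLR3G or POLR3GL. POLR3G is known as the form of stem cells and some tumour cells and POLR3GL as the form of most differentiated tissues.

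POLR3G levels were 0.64, 0.51 and 0.56 on the untreated arrays, −0.09, −0.09 and −0.12 at 8 nM and −0.31, −0.15 and −0.25 at 80 nM. Every treated array lay below every untreated one, with the arrays at 8 nM close together. The fall was 0.628-fold of untreated at 8 nM (log2 change −0.67, SE 0.08, adjusted p = 0.0011) and 0.572-fold at 80 nM (−0.81, SE 0.08, adjusted p = 3.6e-05). The step from 8 nM to 80 nM, −0.13, did not pass (adjusted p = 0.16).

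POLR3GL moved the opposite way. Its levels were 2.71, 2.80 and 2.70 in untreated cells, 3.17, 3.64 and 3.32 at 8 nM and 3.24, 3.26 and 3.31 at 80 nM. Again every treated array was separated from the untreated ones, here above them. The rise at 8 nM was 1.56-fold (0.64, SE 0.12, adjusted p = 0.011), and the level at 80 nM was 1.45-fold of untreated (0.53, SE 0.12, adjusted p = 0.0045), the latter just below the fold threshold and 0.26 with spike-in scaling; without 8 nM replicate 2 the value at 8 nM was 0.51 and was not called. Both genes were read by a second probe that pointed the same way: −0.51 and −0.34 for POLR3G and 0.74 and 0.87 for POLR3GL at 8 nM and 80 nM. With the mean of its probes, POLR3G at 80 nM stood at −0.57 and was not called, while POLR3GL was.

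Further polymerase III subunits responded at 80 nM. POLR3F, a subunit that contacts TFIIIB, had levels of −0.28, 0.03 and −0.02 in untreated cells and 0.86, 0.66 and 0.77 at 80 nM, a rise of 0.85 (SE 0.12, adjusted p = 0.00046) that was 0.58 and not called under spike-in scaling. POLR3E, a peripheral subunit, fell by 0.64 (SE 0.08, adjusted p = 0.00014), with a second probe of the same transcript at −0.97. The catalytic subunits POLR3A and POLR3B stood at −0.25 and −0.51 at 80 nM (adjusted p = 0.027 and 0.00081) and were not called. POLR3C, POLR3D and POLR3K lay between −0.17 and +0.12 at 80 nM. A second POLR3C probe of the same transcript gave +0.40 at 80 nM. At 8 nM POLR3K stood at −0.40 (adjusted p = 0.033 in limma) and was not called.

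**Figure D3:**
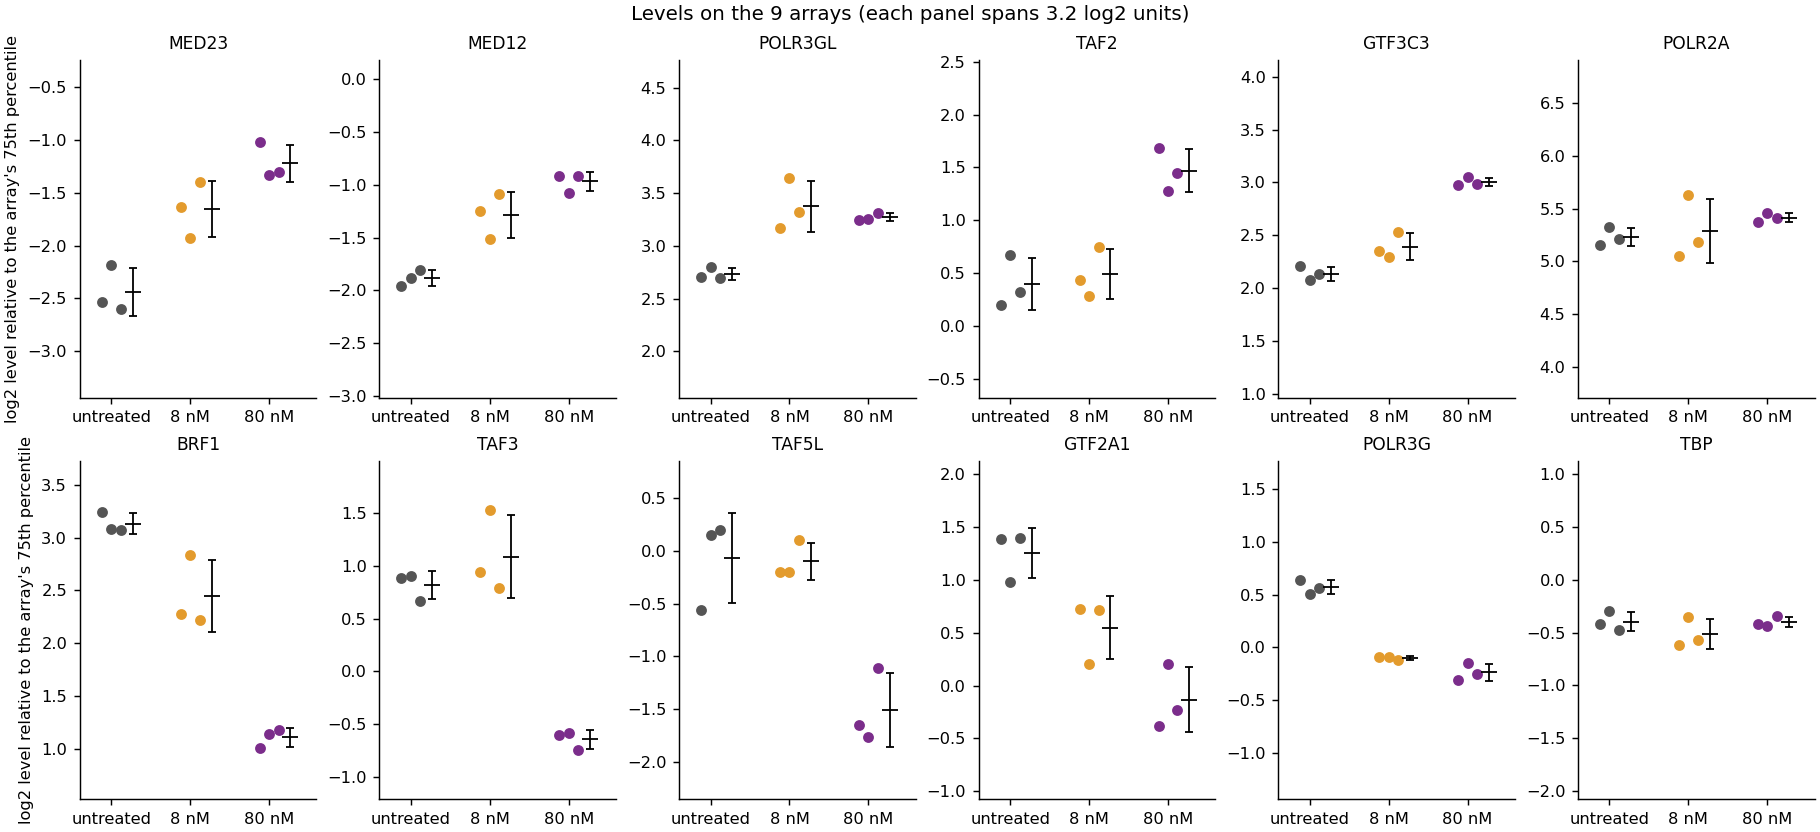
Levels of 12 members on the 9 arrays (y axis: log2 signal relative to the 75th percentile of the array; dots: single arrays; bars: mean ± SD, n = 3). MED23, MED12, GTF3C3, BRF1, GTF2A1, POLR3G and POLR3GL were separated from the untreated arrays at both concentrations, POLR2A, TAF2, TAF3 and TAF5L at 80 nM, and TBP at neither.

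TFIIIB and TFIIIC place RNA polymerase III on its genes, and 3 of their 8 members (37.5%) were called at 80 nM, a share near the 35.2% of all genes tested. BRF1 encodes the TFIIIB subunit used at transfer RNA and 5S genes. Its levels were 3.24, 3.08 and 3.07 in untreated cells, 2.27, 2.84 and 2.22 at 8 nM and 1.00, 1.14 and 1.18 at 80 nM, so that the 3 groups did not overlap. The level was 0.622-fold of untreated at 8 nM (−0.69, SE 0.16, adjusted p = 0.026) and 0.246-fold at 80 nM (−2.02, SE 0.16, adjusted p = 1.3e-05), and the difference of 80 nM from 8 nM was −1.34 (adjusted p = 0.00016). This was the largest fall among members measured above background on every array. It held for the probe designed to NM_001519; the second probe, designed to NM_001242790, gave −0.44 to −0.35 in untreated cells, −0.61 to −0.50 at 8 nM and −0.13 to −0.00 at 80 nM, changes of −0.15 and +0.32. The 2 probes of BRF1 thus moved in opposite directions at 80 nM, and their mean stood at −0.42 at 8 nM, not called, and −0.85 at 80 nM. Without 8 nM replicate 3, the change of BRF1 at 8 nM was −0.57 and not called.

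BRF2, which replaces BRF1 at genes with upstream promoters such as U6, stood at −0.02 and +0.08 and was not called. GTF3C3, a TFIIIC subunit of the lobe that binds the A box, had levels of 2.20, 2.07 and 2.13 in untreated cells, 2.35, 2.29 and 2.53 at 8 nM and 2.98, 3.05 and 2.98 at 80 nM. Its 80 nM arrays were the highest and close together, a rise of 1.82-fold (0.87, SE 0.09, adjusted p = 5.1e-05). Its second probe, designed to NM_001206774, gave +0.33 at 80 nM and −0.34 at 8 nM, where the first gave +0.26. GTF3C4, a TFIIIC subunit with histone acetyltransferase activity, fell at 80 nM by 0.66 (SE 0.10, adjusted p = 0.00045), with −0.63 at a second probe of the same transcript. The remaining TFIIIC subunits GTF3C1, GTF3C2, GTF3C5 and GTF3C6 lay between −0.34 and +0.11.

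Of the general factors of polymerase II, the gene of the large TFIIA subunit, GTF2A1, changed most. TFIIA stabilises TBP on DNA. GTF2A1 levels were 1.39, 0.98 and 1.39 in untreated cells, 0.72, 0.20 and 0.72 at 8 nM and −0.38, 0.21 and −0.23 at 80 nM. All treated arrays were below the untreated ones. Within same-numbered untreated and 8 nM cultures the differences were −0.67, −0.78 and −0.68. The level was 0.612-fold of untreated at 8 nM (−0.71, SE 0.20, unadjusted p = 0.0074, adjusted p = 0.056) and 0.381-fold at 80 nM (−1.39, SE 0.20, adjusted p = 0.00048); the value at 8 nM was not called without 8 nM replicate 2 (−0.54) or with spike-in scaling (−0.63). With the replicate number as a block, the adjusted p at 8 nM was 0.031 over the untreated and 8 nM arrays and 0.1 over all 9. GTF2F2, the smaller TFIIF subunit, fell at 80 nM by 0.60 (SE 0.11, adjusted p = 0.0018). GTF2B, the gene of TFIIB, rose at 80 nM by 0.57 (SE 0.09, adjusted p = 0.001), which is 1.48-fold and just short of a call; it was called without untreated replicate 1 or 2, or without 80 nM replicate 2 or 3. The small TFIIA subunit GTF2A2, both TFIIE genes and GTF2F1 lay between −0.12 and +0.05 at 80 nM. For GTF2A2, a second probe of the same transcript gave +0.34 at 80 nM.

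TBP, which all 3 systems share, did not pass the test. Its levels were −0.42, −0.29 and −0.48 in untreated cells, −0.62, −0.35 and −0.57 at 8 nM and −0.41, −0.44 and −0.34 at 80 nM. The groups overlapped at both concentrations. The differences were −0.12 (SE 0.09, adjusted p = 0.42) and 0.00 (95% confidence interval −0.22 to 0.21).

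Of the 16 TFIID members, 0 were called at 8 nM, where 7.25% of all genes tested were called in either direction. At 8 nM 2 of them had an unadjusted p under 0.05 in limma. At 80 nM 1 (6.25%) was up-regulated and 3 (18.8%) down-regulated, where 18.8% and 16.4% of all genes tested were. TAF2, a large subunit that helps TFIID to bind the initiator, had levels of 0.19, 0.67 and 0.32 in untreated cells, 0.43, 0.28 and 0.75 at 8 nM and 1.68, 1.27 and 1.45 at 80 nM. The untreated and 8 nM arrays overlapped and the 80 nM arrays stood above both. The rise at 80 nM was 2.11-fold (1.07, SE 0.17, adjusted p = 0.00073), against a difference of 0.09 at 8 nM.

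TAF3, a subunit with a domain that reads a methylated histone mark of active promoters, showed the opposite pattern. Its levels were 0.89, 0.90 and 0.67 in untreated cells, 0.94, 1.53 and 0.79 at 8 nM and −0.60, −0.59 and −0.75 at 80 nM. Only the 80 nM arrays were separated from untreated, below them. The level at 80 nM was 0.363-fold of untreated (−1.46, SE 0.18, adjusted p = 0.00017), and the difference of 80 nM from 8 nM was −1.73 (adjusted p = 7.5e-05).

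TAF13, which forms a histone-fold pair with TAF11, fell at 80 nM by 1.19 (SE 0.26, adjusted p = 0.0046), and TAF4, a core subunit contacted by activators, fell by 0.92 (SE 0.11, adjusted p = 0.00016). TAF11 itself stood at 0.26 at 80 nM (adjusted p = 0.047, not called). The other TFIID members were not called and ranged from −0.32 (TAF7) to +0.55 (TAF9B) at 80 nM. TAF1, the largest subunit, differed by −0.19 at 8 nM and −0.31 at 80 nM (adjusted p = 0.19 and 0.014).

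Of the TAF paralogues outside canonical TFIID, TAF5L, a subunit of the SAGA-type coactivator complex, was down-regulated at 80 nM. Its levels were −0.56, 0.15 and 0.20 in untreated cells, −0.20, −0.20 and 0.10 at 8 nM and −1.65, −1.76 and −1.11 at 80 nM. The 80 nM arrays lay below all others, with untreated replicate 1 well below the other two. The level was 0.369-fold of untreated (−1.44, SE 0.24, adjusted p = 0.00093), while a second probe, designed to NM_001025247, read −2.66 to −2.43 in untreated cells and −2.56 to −2.48 at 80 nM, a change of 0.00. TAF6L, another subunit of that complex, stood at −0.17, TAF15, an RNA-binding protein, at +0.09, and TAF1L at −0.50 (adjusted p = 0.0074), none of them called.

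Mediator contributed 30 tested members. Of these, 2 (6.67%) were up-regulated at 8 nM, where 4.28% of all genes tested were. At 80 nM 2 (6.67%) were up-regulated and 3 (10%) down-regulated, where 18.8% and 16.4% of all genes tested were. The 7 head members were not called at 8 nM or 80 nM, with an unadjusted p under 0.05 for 1 and 2 of them. The middle and scaffold held 1 call at 80 nM, the tail 1 and the kinase module 3. The kinase module count includes MED12L, which passed the filter on dim probes only through the untreated cells.

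MED23 encodes a tail subunit contacted by activators that respond to growth signals. Its levels were −2.54, −2.18 and −2.60 in untreated cells, −1.63, −1.93 and −1.40 at 8 nM and −1.02, −1.34 and −1.31 at 80 nM. The 3 groups were separate and stood in the order of the concentrations. The rise was 1.73-fold at 8 nM (0.79, SE 0.16, adjusted p = 0.019) and 2.33-fold at 80 nM (1.22, SE 0.16, adjusted p = 0.00031). The step between them, 0.43, did not reach the fold threshold (adjusted p = 0.052). Of the other probes of MED23, both designed to NM_015979, one gave 0.52 and 0.65 and the other, dimmer and above background on 7 arrays, 0.17 and 0.09. At 8 nM the gene stood at 0.58 with the authors' values, 0.52 with normexp correction and 0.49 with the mean of its probes, and was not called with any of these.

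MED12 encodes the kinase-module subunit that activates the Mediator kinase. Its levels were −1.96, −1.89 and −1.81 in untreated cells, −1.25, −1.52 and −1.09 at 8 nM and −0.91, −1.07 and −0.91 at 80 nM. As for MED23, the 3 groups were separate. The rise was 1.52-fold at 8 nM (0.60, SE 0.12, adjusted p = 0.013) and 1.89-fold at 80 nM (0.92, SE 0.12, adjusted p = 0.00021). At 8 nM the call was near the threshold and was lost without untreated replicate 1, 8 nM replicate 1 or 8 nM replicate 3, where the change was 0.50 to 0.58; it was also lost with the authors' values (0.55) and with normexp correction (0.51).

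The other called Mediator members changed at 80 nM. MED26, the subunit that links Mediator to elongation factors, had levels of 1.99, 2.13 and 2.06 in untreated cells, 1.64, 1.92 and 1.69 at 8 nM and 1.10, 1.13 and 1.17 at 80 nM, a fall of 0.93 (SE 0.09, adjusted p = 5.3e-05). MED13L, the paralogue of MED13, which ties the kinase module to the core, fell by 0.67 (SE 0.15, adjusted p = 0.0043), and MED13 stood at −0.46 (adjusted p = 0.011, not called). MED12L, the paralogue of MED12, read −3.64, −4.10 and −3.64 in untreated cells and was above background on 0 of the 3 arrays at 80 nM, which makes it at least 2.69-fold lower there. It entered the comparison only through the group where it was high, so its call is no test of a change, and after normexp correction it was −0.37 and not called. MED1, the subunit contacted by nuclear receptors, and MED14, the scaffold, were not called, with −0.04 and +0.04 at 80 nM. MED18 in the head was not called against untreated (0.33 at 80 nM), but its second probe of the same transcript rose from −2.77, −2.24 and −2.55 to −1.07, −0.40 and −0.17, a change of 1.97.

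Within several paralogue pairs the members changed unequally. POLR3G fell at both concentrations, and POLR3GL rose at 8 nM and stood at +0.53 at 80 nM, not called. At 80 nM TAF4 fell by 0.92 while TAF4B stood at +0.46 (adjusted p = 0.0083, not called), with all 3 arrays above untreated. MED12 rose by 0.92, while MED12L has only a bound. BRF1 stood at −2.02 by its brightest probe and at +0.32 by its other probe, and BRF2 at 0.08. In the other pairs fewer calls were made. TAF5 stood at 0.25, against −1.44 for TAF5L by its brightest probe and −0.0015 by its other probe. TAF6 stood at 0.28 against −0.17 for TAF6L, and TAF9 at 0.15 against 0.55 for TAF9B. TAF1 stood at −0.31 against −0.50 for TAF1L, and TAF7 at −0.32 with TAF7L not above background. The difference between the members of a pair was not tested.

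**Figure D4:**
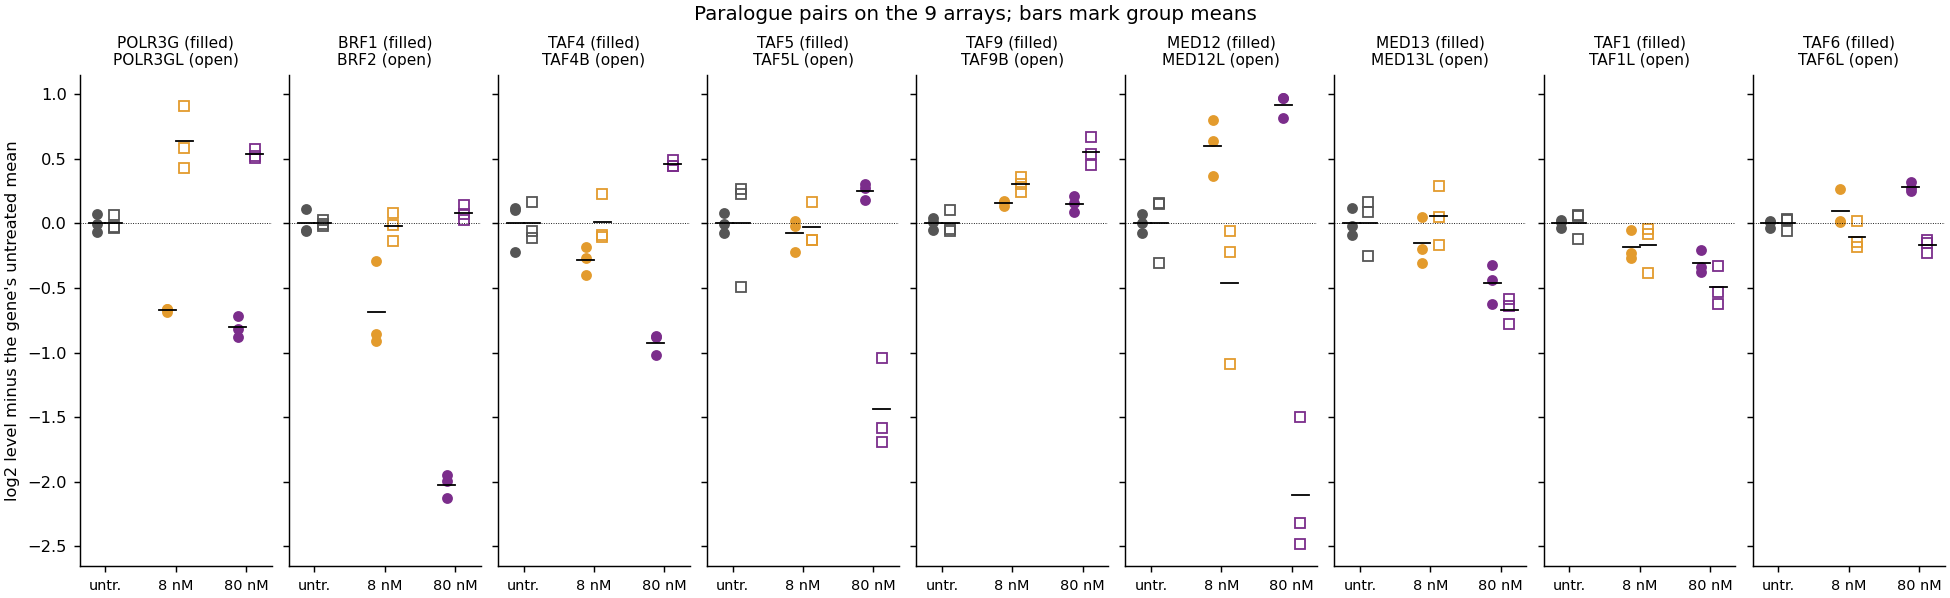
Levels of 9 paralogue pairs on the 9 arrays, each gene relative to its own untreated mean (y axis: log2 difference; filled circles: first gene; open squares: second gene; bars: group means, n = 3). POLR3G and POLR3GL separate in opposite directions at 8 nM and 80 nM, whereas MED13 and MED13L both stand below 0 at 80 nM; the MED12L values at 80 nM are not well above background.

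The 2 comparisons with untreated cells use the same 3 untreated arrays. Side by side, MED23 and MED12 were up-regulated and BRF1, GTF2A1 and POLR3G down-regulated at both concentrations. POLR3GL was called at 8 nM only, with 0.64 and 0.53, and 5 up-regulated and 11 down-regulated members were called at 80 nM only. Comparing 80 nM with 8 nM directly, 5 members were higher at 80 nM (TAF2, POLR2C, POLR3F, MED18 and GTF3C3), where 19.2% of all genes tested were called, and 10 were lower (among them TAF3, MED12L, TAF5L, BRF1, MED13L, TAF13, GTF2A1, TAF4 and MED26), where 14.4% were; without MED12L 9 were lower. With spike-in scaling the counts were 0 and 30. TAF13 was at the limit of this call (−0.69, adjusted p = 0.05 in limma), and its 8 nM and 80 nM arrays overlapped. It lost the call in the fit with a replicate block and with only the groups compared. Leaving out replicate 1 or 3 of the 8 nM group, or replicate 1 or 3 of the 80 nM group, also lost it. GTF2A1 lost it without 80 nM replicate 1 (−0.56), and its 8 nM and 80 nM arrays overlapped. BRF1 lost it with the mean of its probes (−0.43). With normexp correction and with the authors' values TAF4 and MED18 were not called. Without 8 nM replicate 2, MED18, GTF3C3 and MED26 were not called. GTF3C3 was also not called with quantile normalization, nor was MED18 without 80 nM replicate 2 or 80 nM replicate 3.

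Promoters of members called at both concentrations are shown because DIG-MSK binds C/G-rich DNA. RefSeq promoters (build GRCh38.p14, 250 bases before to 50 bases after the annotated start) were found for 79 of the 101 members, POLR3G not among them. POLR3GL is added as the paralogue of POLR3G. Sequences run 5′ to 3′ on the strand of the gene, and capitals mark the GC box letters GGGCGG or, on the opposite strand, CCGCCC.
MED23 (chr6:131628264-131628563, minus strand): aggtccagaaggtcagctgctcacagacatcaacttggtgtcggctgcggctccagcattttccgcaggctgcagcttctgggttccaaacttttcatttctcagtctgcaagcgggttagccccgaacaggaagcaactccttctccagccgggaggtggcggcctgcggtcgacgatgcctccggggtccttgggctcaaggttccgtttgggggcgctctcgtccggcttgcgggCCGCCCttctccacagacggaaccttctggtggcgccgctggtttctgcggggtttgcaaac
MED12 (chrX:71118346-71118645, plus strand): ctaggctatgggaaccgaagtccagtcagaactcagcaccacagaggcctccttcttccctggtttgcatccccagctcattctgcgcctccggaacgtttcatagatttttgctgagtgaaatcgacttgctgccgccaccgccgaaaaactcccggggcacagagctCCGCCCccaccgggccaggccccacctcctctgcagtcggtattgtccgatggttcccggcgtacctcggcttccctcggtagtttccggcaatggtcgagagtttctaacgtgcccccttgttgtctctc
BRF1 (chr14:105315540-105315839, minus strand): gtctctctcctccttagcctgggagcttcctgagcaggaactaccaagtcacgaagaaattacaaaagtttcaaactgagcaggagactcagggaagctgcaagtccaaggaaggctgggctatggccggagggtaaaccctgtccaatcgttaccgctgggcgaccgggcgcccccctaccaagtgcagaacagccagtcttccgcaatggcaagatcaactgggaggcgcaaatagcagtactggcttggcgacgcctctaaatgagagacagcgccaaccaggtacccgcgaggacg
GTF2A1 (chr14:81221341-81221640, minus strand): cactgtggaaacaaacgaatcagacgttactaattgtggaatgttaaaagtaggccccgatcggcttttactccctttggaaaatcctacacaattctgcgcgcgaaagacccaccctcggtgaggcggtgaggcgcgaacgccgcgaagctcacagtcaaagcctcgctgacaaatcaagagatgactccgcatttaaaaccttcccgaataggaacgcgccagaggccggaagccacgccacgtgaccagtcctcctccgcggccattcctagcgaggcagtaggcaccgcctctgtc
POLR3GL (chr1:145964440-145964739, plus strand): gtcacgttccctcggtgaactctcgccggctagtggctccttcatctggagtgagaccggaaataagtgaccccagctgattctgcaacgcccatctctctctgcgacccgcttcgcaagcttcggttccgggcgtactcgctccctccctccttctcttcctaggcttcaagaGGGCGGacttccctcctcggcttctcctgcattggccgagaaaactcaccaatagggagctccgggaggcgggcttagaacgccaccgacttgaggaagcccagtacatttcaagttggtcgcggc

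The MED23, MED12 and POLR3GL promoters held 1 GC box each, and those of BRF1 and GTF2A1 held 0. Their G and C content was 61.7%, 59%, 59.3%, 56.7% and 55.3%. Over the members, 45 of 79 promoters (57%) held at least 1 such motif, against 45% of all 35116 promoters in the table and 67.3% of those of the genes tested that matched by symbol. At 80 nM the motif was present in 2 of 5 up-regulated, 6 of 12 down-regulated and 37 of 61 uncalled members with a promoter, and their median G and C content was 57%, 70.8% and 59.3%. The 12 down-regulated members include MED12L (75.3% G and C, 0 motifs), which passed the filter on dim probes only through the untreated cells. The median without MED12L was not computed. Over all genes tested with a promoter the shares were 65.6%, 63.9% and 68.5% and the medians 65%, 64.7% and 64.7%. These are matches of letters in one annotated window per gene; for BRF1, with probes for 2 transcripts, the window covers a single start.

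**Figure D5:**
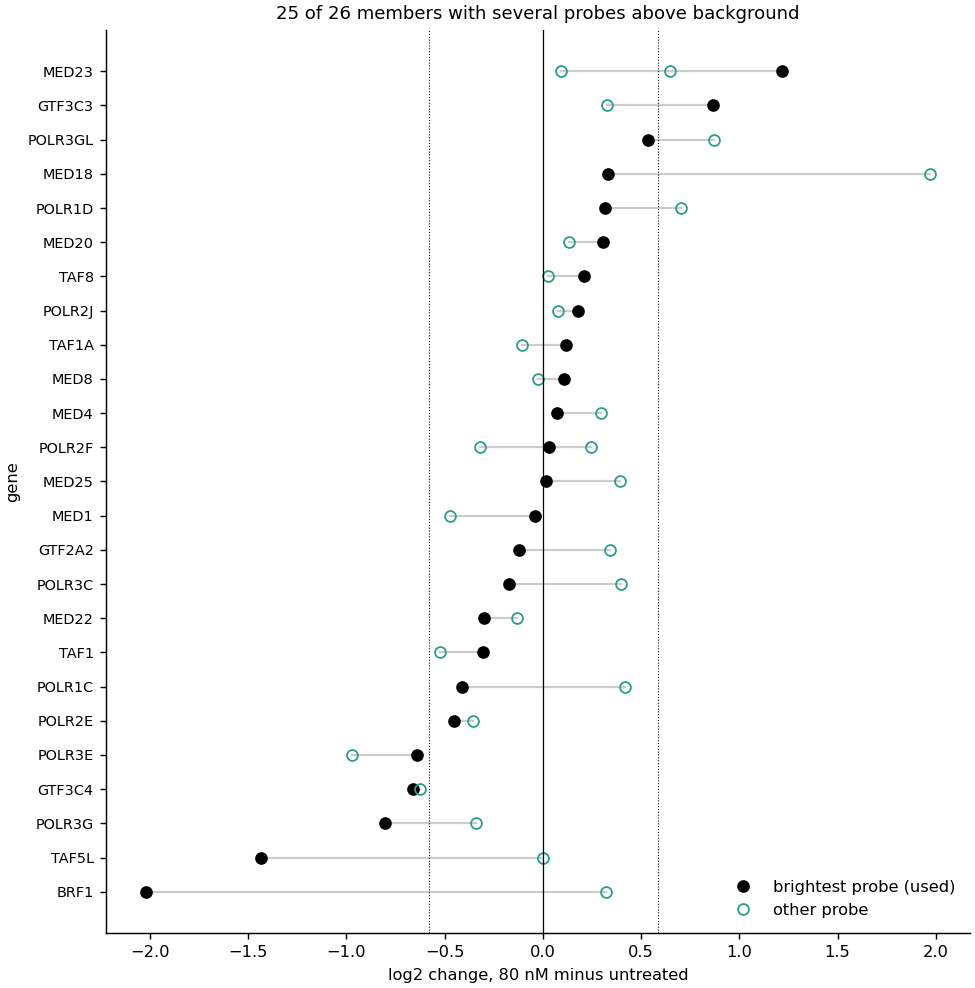
Log2 change at 80 nM against untreated for each probe of 25 of the 26 members with several probes above background (filled: brightest probe, used throughout; open: other probes; dotted lines: 1.5-fold and 0.67-fold). The probes pointed opposite ways in 7 of these members, and differed by more than 1 log2 unit in BRF1, MED18, MED23 and TAF5L.

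Since the brightest probe stood for each gene, the other probes show how far a member depends on that choice. At 80 nM the probes of 26 members with several pointed the same way in 19 and in opposite directions in 7, and at 8 nM in 21 and 5. For POLR1C, for example, 2 probes of one transcript gave −0.41 and +0.42 at 80 nM. Averaging the probes of a gene left 19 of the 21 calls at 80 nM, with POLR3G among those lost, and added MED18 and POLR3GL.

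A list of 47 genes of neighbouring machinery, such as TFIIH, elongation factors and the SNAPc complex of small nuclear RNA genes, was counted beside the members. Of the 46 tested, 0 were called at 8 nM at the fold and unadjusted p used here, where 7.25% of all genes tested were. At 8 nM 8 of the 46 had an unadjusted and 2 an adjusted p under 0.05 in limma, with smaller changes. At 80 nM 4 were up-regulated and 6 down-regulated, or 8.7% and 13%, where 18.8% and 16.4% of all genes tested were. The members, with 7% and 14%, and this list both had a smaller share of up-regulated genes than the 18.8% of all genes tested; no test of that difference was made.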

How the data were processed

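The authors hybridised RNA of 9 A2780 cultures to SurePrint G3 Human Gene Expression arrays, labelled with Cy3 and read with Agilent Feature Extraction 10.7.3.1. The deposited scanner files hold the background-subtracted intensity of each spot, the median spot and background intensity and flags; a deposited table holds the authors' log2 values, on the scale of the median spot signal, with array medians of 6.451 to 6.527, no centring by gene and quantiles nearly equal between arrays. Depth has no meaning here, and the 3 arrays per group limit the precision. Spots flagged as outliers and 4259 control spots were left out, and spots of a probe were averaged. The RefSeq gene table named 25715 of the 27245 probes that carry a RefSeq accession, matched without versions; a probe not matched was kept under its own identifier.

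Log2 of the processed intensity was centred on the 75th percentile of each array. A gene was tested where in 1 or more groups all 3 arrays had one of its probes well above background, and it was read from the brightest such probe. One limma 3.58.1 model (R 4.3.3) over 3 groups gave all contrasts, and p-values were adjusted by Benjamini-Hochberg across all 21832 genes; the fold and p rule is that of the study's methods. A gene with 1 group not above background on any array was given a bound. The fit was tested on simulated data. Values were printed for called members, for fixed reference members and for paralogue pairs, with single arrays for the 4 largest rises and falls at each concentration among called members above background, POLR2A and TBP, and with single arrays of other called members added after their values were seen. The members and lists were chosen with earlier results of these data known. Replicate numbers in the labels were checked for pairing. The deviations of same-numbered untreated and 8 nM arrays correlated at 0.1136, 0.1013 and 0.1629, whereas those with 80 nM correlated at −0.1239 to 0.0155. The main model used no pairing, and the replicate number entered only as a block among the alternatives.

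Alternatives were normexp correction (offset 50) of the median spot intensity, chosen after seeing that the files used hold no mean spot intensity, quantile normalization, spike-in scaling, the authors' log2 values, other filters, the mean of the probes, only the groups compared, a replicate block, adjusted p-values and leaving out each array. Promoters came from RefSeq. A member counted among the totals is not reported here by name or value.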

Additional observations from a re-analysis of the deposited data

How the results depend on the processing

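The counts of called members at 8 nM, 3 up-regulated and 3 down-regulated, stood at 1 up-regulated with normexp correction and with the authors' log2 values, since MED12 and MED23 fell short of the fold threshold. With spike-in scaling, 4 members were up-regulated and 27 down-regulated at 80 nM, and 0 were higher and 30 lower at 80 nM than at 8 nM; this scaling also lowered the median of all genes. With the other alternatives that were run on all 9 arrays, each of these counts stayed within 1.5 times its value, and no member called against untreated changed its sign. Leaving out 1 array at a time gave 2 to 3 up-regulated and 2 to 3 down-regulated members at 8 nM, 7 to 9 and 14 at 80 nM, and 3 to 5 higher and 9 to 11 lower at 80 nM than at 8 nM. The count of 3 for members higher at 80 nM than at 8 nM arose without 8 nM replicate 2, where MED18 and GTF3C3 were lost. MED26, called lower at 80 nM than at 8 nM, was lost without that array as well (−0.53). In the fit with a replicate block the counts were 3 and 3 at 8 nM, 7 and 14 at 80 nM and 5 and 9 between the concentrations, with TAF13 (−0.69) the only call that changed; the block over only the groups compared gave the same counts. The planned normexp correction of the mean spot signal was not run. The 3 arrays per group, and a slide of their own for those at 80 nM, limit all values.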
